A study of Mus musculus with 2 samples.

Results

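The microRNA genes Mir128-1 and Mir128-2 were examined in small RNA libraries of mouse cerebral cortex. The rule that takes them uses their symbols and no measured value, and they are 2 of the 2202 microRNA genes counted. The tissue was left cerebral cortex labelled as male B6CASTF1/J mouse at 14 days of age. B6CASTF1/J is an F1 hybrid whose parent strains are C57BL/6 and CAST/Ei. All RNA came from this single group, sequenced as 2 libraries that the labels call biological replicates 1 and 2. Both carry the same donor label, and their tissue records use the wording 3x Males without saying whether tissue was pooled. Nothing in the labels says that separate animals were used, so the SD measures the spread between these libraries, which may be technical. There was no treatment and no control, so the comparisons are between the gene copies, between the libraries, and with other microRNA genes.

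MicroRNAs are cut from hairpins in longer transcripts. One arm is loaded into an Argonaute protein and pairs with messenger RNAs mainly through its seed, bases 2 to 8 from the 5′ end, which lowers their translation and stability. miR-128 is known as a brain-enriched microRNA that accumulates as neurons mature and that restrains neuronal excitability. It is made from a pair of gene copies on different chromosomes, each inside a protein-coding gene. R3hdm1 encodes a protein with an R3H domain, a nucleic-acid-binding fold. Arpp21 encodes a cAMP-regulated phosphoprotein of neurons that also has an R3H domain and is listed by RefSeq under the synonym R3hdm3.

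The mature arms show what the copies share and where they differ. They were taken from RefSeq (GRCm38.p6), where both genes were matched by symbol and have the same coordinates as in the annotation used for counting. Capitals mark the seed:
mmu-miR-128-3p (Mir128-1 and Mir128-2): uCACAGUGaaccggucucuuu
mmu-miR-128-1-5p (Mir128-1): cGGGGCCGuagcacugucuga
mmu-miR-128-2-5p (Mir128-2): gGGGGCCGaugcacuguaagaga
The 3p arm, 21 bases long, is identical in the copies. The 5p arms are 21 and 23 bases long and share 16 identical bases in 23 aligned columns (69.6%), but their seeds are the same. Each copy therefore gives the same pair of seeds. None of the other mature sequences among the 1738 in the table has the 5p seed at bases 2 to 8.

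The whole hairpins are printed because only reads that differ between them can be given to one copy. Capitals mark the longest stretch that is identical in both:
Mir128-1 hairpin: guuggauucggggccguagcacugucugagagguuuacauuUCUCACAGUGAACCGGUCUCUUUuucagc
Mir128-2 hairpin: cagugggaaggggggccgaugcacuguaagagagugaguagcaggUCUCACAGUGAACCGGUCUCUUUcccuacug
This stretch is 23 bases long and holds the 21 bases of the 3p arm with 2 bases before it. The next base differs, U22C, counted from 1 at the 5′ end of the 3p arm with the Mir128-1 base given before the Mir128-2 base. A sequence made of the 3p arm and 1 further U is thus found in the Mir128-1 hairpin only, and the arm with 1 further C in the Mir128-2 hairpin only. Of the 50 windows of 21 bases in the Mir128-1 hairpin, 3 also occur in the Mir128-2 hairpin, and no window of 24 bases does. No window of 16 to 26 bases from either copy occurs in the hairpin of another microRNA gene in the table. Searched in 141767 GENCODE transcripts on both strands, the 3p arm occurred in transcripts of 2 genes, Mir128-1 and Mir128-2, and each 5p arm in 1, its own gene. The genome itself was not searched here.

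**Figure D1:**
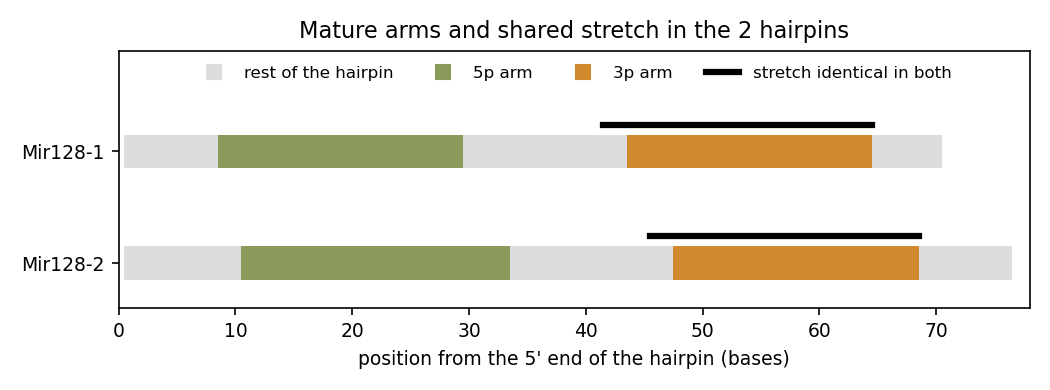
Map of the Mir128-1 and Mir128-2 hairpins, with position in bases from the 5′ end on the horizontal axis. Coloured blocks are the mature 5p and 3p arms, grey is the rest of the hairpin, and the black line is the identical stretch of 23 bases, which covers the whole 3p arm and none of the 5p arm.

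The hairpins were 70 and 76 bases long and shared 55 identical bases in 77 aligned columns (71.4%). Mir128-2 was richer in G and C, at 56.6% against 50% for Mir128-1. RNAfold gave it a lower minimum free energy, -37.3 kcal/mol with 28 base pairs, against -29.3 kcal/mol with 26 base pairs for Mir128-1. These are computed properties of the reference sequence; alleles of the CAST/Ei parent were not analysed here.

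The host genes place the copies alike. Mir128-1 (ENSMUSG00000065520.2) lies on mm10 chromosome 1, 128202361 to 128202430, on the plus strand, in intron 19 of transcript R3hdm1-201, which has 27 exons. R3hdm1 (ENSMUSG00000056211.13) spans 128103301 to 128237736 on the same strand. Mir128-2 (ENSMUSG00000065441.2) lies on chromosome 9, 112118636 to 112118711, on the minus strand, in intron 19 of transcript Arpp21-223, which has 21 exons. Arpp21 (ENSMUSG00000032503.18) spans 112065091 to 112235938 on the same strand. The copies start 73.7% and 68.6% of the way into their host genes, 99060 and 117227 bases from the 5′ end of the gene. Neither overlapped an exon of its host in any of the transcripts that span it, 2 of 16 for R3hdm1 and 9 of 31 for Arpp21.

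Within the intron the copies sit differently. The R3hdm1 intron is 14107 bases long, and Mir128-1 lies 5263 bases from the upstream exon and 8774 bases from the downstream exon. In Arpp21, 8 of the 9 spanning transcripts have an intron of 51873 bases, in which Mir128-2 lies 471 bases after the upstream exon and 51326 bases before the downstream exon. In the other transcript, Arpp21-210, the intron is 2415 bases long and the downstream exon is 1868 bases away. Each copy stands alone in its neighbourhood. No other microRNA gene lies in R3hdm1 or Arpp21, nor within 100 kb of either copy. The related genes R3hdm2 and R3hdm4, which also carry the R3H domain name, hold 0 microRNA genes in this annotation. Messenger RNA of the host genes was not analysed here, since the counts cover microRNA genes only.

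**Figure D2:**
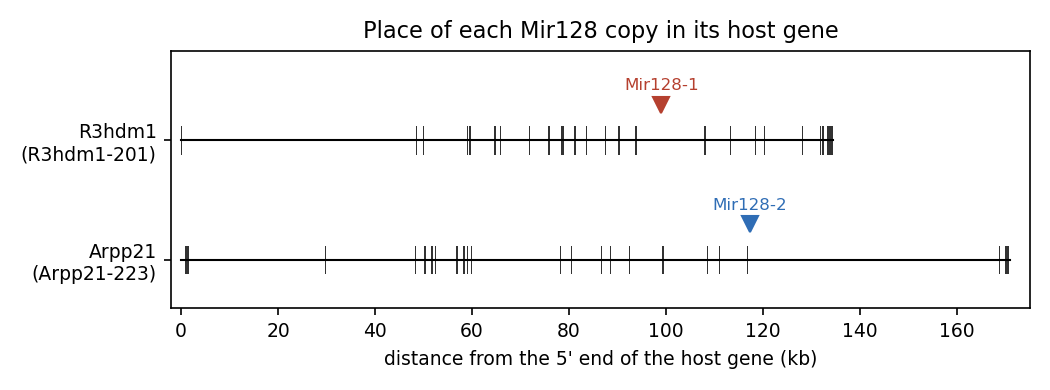
Transcripts R3hdm1-201 and Arpp21-223 drawn 5′ to 3′, with distance from the 5′ end of the host gene in kb on the horizontal axis. Black boxes are exons, the shortest widened to stay visible, and triangles mark Mir128-1 and Mir128-2, which lie in introns at 73.7% and 68.6% of the gene length.

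The libraries held 11224232 and 8758378 reads, and 4111167 and 3189903 of them fell in microRNA genes in sense orientation. Reads that matched several positions, 39.1% and 41.4% of the reads, have a row of their own. The settings of the counting are not given, but with that row included the columns for each strand and for strand ignored add up to the same number of reads in each library. These reads are therefore taken to be in no gene row, and the counts of each copy to come from reads placed at a single position. A read that lies wholly in the identical stretch would then count for neither copy. The 5p and 3p arms are not separated. Neuron-associated Mir139 was the most abundant gene, at 101560 and 83088 CPM, counts scaled to a common library total. It made up most of the sum over 9 cortical neuron markers, 124380 and 112570 CPM. Of these markers, 5 had at least 10 counts in each library. The Mir9 genes on this list were low: Mir9-3 had 355 and 367 counts, Mir9-1 had 44 and 84, and Mir9-2 had 1 and 9. The defining neuronal genes Mir124a-1, Mir124a-2 and Mir124a-3 had few counts, 9, 11 and 2 in the library of replicate 1. In that of replicate 2 they had 19, 3 and 8. A read that matches several copies of Mir124a or of Mir9 would likewise count for none of them. Low counts of these genes therefore do not show that either microRNA was scarce. Markers of other brain cells were present: endothelial Mir126a at 10449 and 13176 CPM, 2 smooth muscle and pericyte markers at 5074 and 5217 CPM in sum, 3 of oligodendrocytes at 2864 and 2531 CPM, and 4 of microglia and leukocytes at 1839 and 1974 CPM. These sums hide low members. Mir143 held most of the smooth muscle and pericyte sum, at 4840 and 5016 CPM, with Mir145a at 234 and 201 CPM. Mir219a-2 and Mir338 held nearly all of the oligodendrocyte sum, with Mir219a-1 at 40 and 32 counts. Mir146 and Mir150 held most of the microglia and leukocyte sum. Mir142 had 114 and 65.8 CPM. Mir223 had 16.5 and 19.1 CPM, below the liver marker Mir122. The part of other brain cells in the Mir128 levels was not tested. The marker of liver, Mir122, stood at 51.8 and 48.0 CPM, and that of pancreas, Mir375, at 43.1 and 89.3 CPM. Erythroid markers summed to 51.6 and 86.2 CPM, and those of hindbrain and spinal cord to 30.2 and 58.3 CPM. Muscle marker Mir206 had 20.7 and 23.8 CPM. The other 4 of 5 muscle markers, Mir1a-1, Mir1a-2, Mir133a-1 and Mir133a-2, were at 0 counts in both libraries. They come as pairs of copies, so reads matching both copies of a pair would not be counted and 0 does not show absence.

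Both copies passed the minimum for detection, 10 counts per library, and Mir128-1 had more counts than Mir128-2 in both. For Mir128-1 the counts were 57746 (replicate 1) and 45484 (replicate 2). This came to 14046 CPM (exact Clopper-Pearson 95% interval 13933 to 14160) and 14259 CPM (14129 to 14389), a mean of 14152 ± 150 CPM (SD, n = 2). The intervals overlap, and the libraries lay close together. Mir128-2 had 19165 and 18206 counts, or 4662 CPM (4596 to 4728) and 5707 CPM (5625 to 5791), a mean of 5185 ± 739 CPM (SD, n = 2). Here the intervals do not overlap, and replicate 2 was the higher. The intervals cover counting error only, and with no molecular identifiers several reads can stem from the same molecule. In tissue, fewer cells that make a microRNA and less of it per cell cannot be told apart. On the strand opposite to either gene there were 0 counts in both libraries, and ignoring strand left the count of each copy the same.

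**Figure D3:**
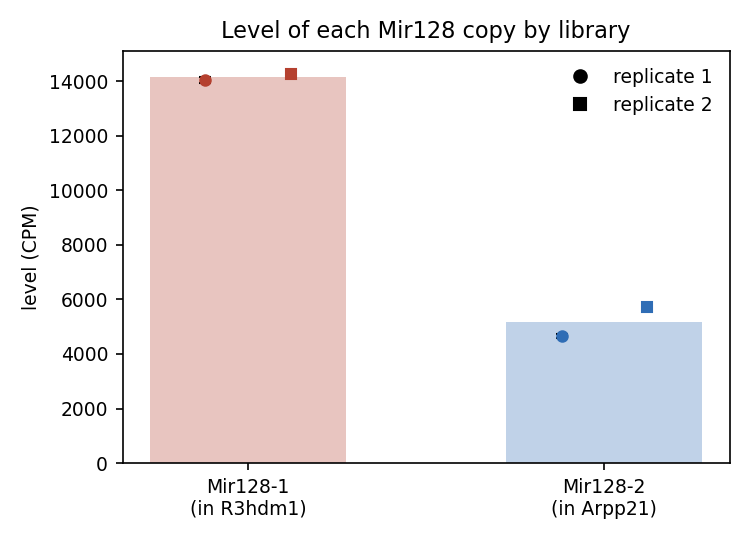
Level of each copy in CPM on the vertical axis; bars are means of 2 libraries, circles are replicate 1 and squares replicate 2. The exact 95% intervals drawn on the points are hardly wider than the points; Mir128-1 lies near 14152 CPM in both libraries, and Mir128-2 at 4662 and 5707 CPM.

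Together the copies had 76911 and 63690 counts, which is 1.87% and 2.00% of the counts (mean 1.93% ± 0.0890, SD, n = 2). Taken as 1 gene, the pair would rank 14 in each library when set among the other 404 detected genes. The share of the pair held by Mir128-1 was 75.1% (exact 95% interval 74.8 to 75.4%) in the library of replicate 1 and 71.4% (71.1 to 71.8%) in the other, a mean of 73.2% ± 2.59 (SD, n = 2). The ratio of Mir128-1 to Mir128-2 counts was 3.01 and 2.50. Per base of hairpin it was 3.27 and 2.71. The copy in R3hdm1 was thus the more abundant by this count in both libraries, by a margin larger than the spread between them. The smallest two-sided p that a sign-flip test over 2 libraries can give is 0.5, so no test over samples was made. With reads that match both copies taken to be in neither count, the ratio describes the reads that could be placed and not the output of each gene.

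The split between the copies differed between the libraries by more than read sampling gives. The odds of Mir128-1 over Mir128-2 in replicate 2 were 0.829 times those in replicate 1, a log2 odds ratio of -0.27 (95% interval -0.30 to -0.24; two-sided Fisher's exact test on read counts, p = 5.22e-54). Mir128-1 had a log2 ratio of replicate 2 to replicate 1 of 0.02 (95% interval 0.0039 to 0.039; adjusted p = 0.0298, exact binomial test on read counts with Benjamini-Hochberg adjustment over 406 detected genes). With all reads in the file as library size the adjusted p was 0.199, while with TMM library sizes the ratio was 0.10 (adjusted p = 3.44e-28) and with DESeq2 size factors 0.10 (adjusted p = 6.77e-30). Its size and its call thus depend on the scaling. Mir128-2 had a log2 ratio of 0.29 (0.26 to 0.32; adjusted p = 6.13e-84, same exact binomial test). Such tests compare 2 libraries and no conditions, and they make no allowance for spread between libraries of 1 group.

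Read against the other detected genes, neither call sets the copies apart. Past the threshold of 0.05 were 58.1% of the 406 genes, 23.4% higher and 34.7% lower in replicate 2, and both copies were among those higher. With DESeq2 size factors 112 genes were higher and 108 lower, against 95 and 141 with the library totals; both copies were still higher. Of the 36 genes with a mean of at least 5000 CPM, 35 passed. From the smallest absolute log2 ratio Mir128-1 ranked 13 of 406 with library totals, 78 with TMM and 79 with DESeq2 size factors. Mir128-2 ranked 197 with library totals and 228 with either of the others. Its ratio of 0.29 lay close to the median absolute ratio of 0.30 over all detected genes, and with TMM and DESeq2 it was 0.37, against medians of 0.29.

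**Figure D4:**
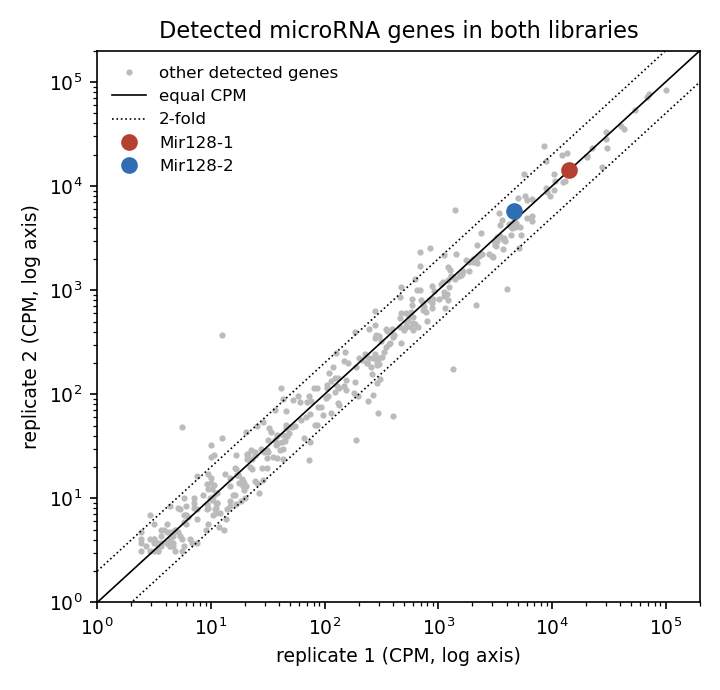
Level of the 406 detected microRNA genes in replicate 1 (horizontal) and replicate 2 (vertical), in CPM on log axes, with lines of equal CPM and of 2-fold difference. Mir128-1 (red) lies on the line of equal CPM, and Mir128-2 (blue) lies slightly above it, at 4662 against 5707 CPM.

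In order of mean level Mir128-1 ranked 18 of 406 and Mir128-2 ranked 36. Mir23b stood just above Mir128-1 at 14812 ± 683 CPM (SD, n = 2), and was the higher in both libraries (14330 and 15295 CPM). Mir22 stood just below at 13253 ± 6171 CPM, lower than Mir128-1 in replicate 1 (8889 CPM) and higher in replicate 2 (17616 CPM). For Mir128-2 the neighbours were Mir409 at 5502 ± 763 CPM and Mir143 at 4928 ± 124 CPM. Both were above Mir128-2 in replicate 1 and below it in replicate 2. Each difference in mean was smaller than the larger SD of the genes compared, which with 2 libraries does not show equal levels. Over the 2 libraries, the genes nearest to Mir128-1 by Euclidean distance in log2 CPM were Mir23b (0.11), Mir652 (0.37) and Mir125a (0.42). Nearest to Mir128-2 were Mir143 (0.19), Mir138-1 (0.20) and Mir98 (0.36).

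Many cortical microRNAs are intronic, and both copies were high among them. Of the 406 detected genes, 162 lay in an intron of a protein-coding gene on the same strand, with a median of 67.0 CPM, against 188 CPM for the rest. Mir128-1 ranked 7 and Mir128-2 ranked 12 of these 162. Between them stood Mir652 in Tmem164 (12128 CPM), Mir151 in Ptk2 (7145 CPM), Mir342 in Evl (6903 CPM) and Mir99b in Spaca6 (5653 CPM).

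Beside other neuron-associated microRNAs the copies took ranks 3 and 5 of 24 listed genes, of which 20 were detected. Those not detected were Mir124a-1, Mir124a-2, Mir124a-3 and Mir9-2, from groups of 3 copies, where reads matching several copies would not be counted. The ranks thus compare reads placed at a single position, and do not set miR-128 against miR-124 or miR-9. Mir139 led at 92324 ± 13062 CPM (SD, n = 2). Mir132, a microRNA induced by neuronal activity, followed at 16177 ± 5583 CPM, so its spread includes the level of Mir128-1. Mir137, which acts in neuronal differentiation and synapses, stood between the copies at 9846 ± 908 CPM. Below Mir128-2 came Mir138-1 at 4807 ± 235 CPM, from a family found at synapses and dendritic spines. Mir383 had 3434 ± 641 CPM, Mir138-2 had 1954 ± 122 CPM and oligodendrocyte-associated Mir219a-2 had 1531 ± 128 CPM. Both Mir219a-1 and Mir219a-2 are on this list and also among the oligodendrocyte markers above, so the list is not of neurons alone. By the exact binomial test 18 of the 20 detected members differed (7 were higher in replicate 2 and 11 lower), or most of the list. Of all detected genes 58.1% differed, 23.4% higher and 34.7% lower. The test picks up smaller differences where counts are higher, and 35 of the 36 genes of at least 5000 CPM passed. The list was not compared with genes of like counts. The median log2 ratio of its detected members was -0.15, against -0.08 over all detected genes, and the median absolute ratio was 0.30 in both. Among the 9 members at 1000 CPM or more in both libraries, Mir128-1 had the smallest absolute log2 ratio with library totals; with TMM and DESeq2 it came 3 of 9, and Mir138-2 had the smallest (-0.05 and -0.04).

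An uneven split was common among microRNA genes that come as 2 copies. There were 22 pairs whose symbols differ only in a copy number and that summed to 10 counts or more per library. The share of the leading copy ranged from 52.6% for Mir29b-1 to 100% for Mir194-2, with a median of 79.5% over the 21 pairs other than Mir128. In 6 of these 21 the split was more even than the 73.2% of Mir128-1. Hairpin sequences were matched for 20 of the 21, and the longest stretch their hairpins share is 22 to 28 bases. For 19 of them the matched sequences list an identical mature sequence in both copies, as for Mir128. For the let-7a pair they list none, though its hairpins share 23 bases. This describes the list only, and does not show that the let-7a copies have no mature sequence in common. The shares of these pairs too are taken to rest on reads placed at a single position.

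Among pairs whose leading copy reached 1000 CPM in both libraries, Mir138 was closest to Mir128, with Mir138-1 at 71.1% ± 2.29 (SD, n = 2). The leading copy held 79.3% ± 2.87 in the let-7c pair (Mirlet7c-2) and 79.5% ± 3.29 in the miR-125b pair (Mir125b-1). Mirlet7f-2 held 94.8% ± 0.279, Mir181b-2 held 99.1% ± 0.0140 and Mir219a-2 held 99.4% ± 0.0674. The copies of Mir128 and Mir138 thus shared their counts more evenly than the other 5 pairs at this level, as a description without a test. The lesser copy of Mir181b had 157 and 129 counts. Where every gene of a pair had 10 counts or more per library, the split could be followed between libraries. The absolute log2 odds ratio had a median of 0.37 over those 19 pairs, Mir128 included, and was smaller than the 0.27 of Mir128 in 6 of them.

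**Figure D5:**
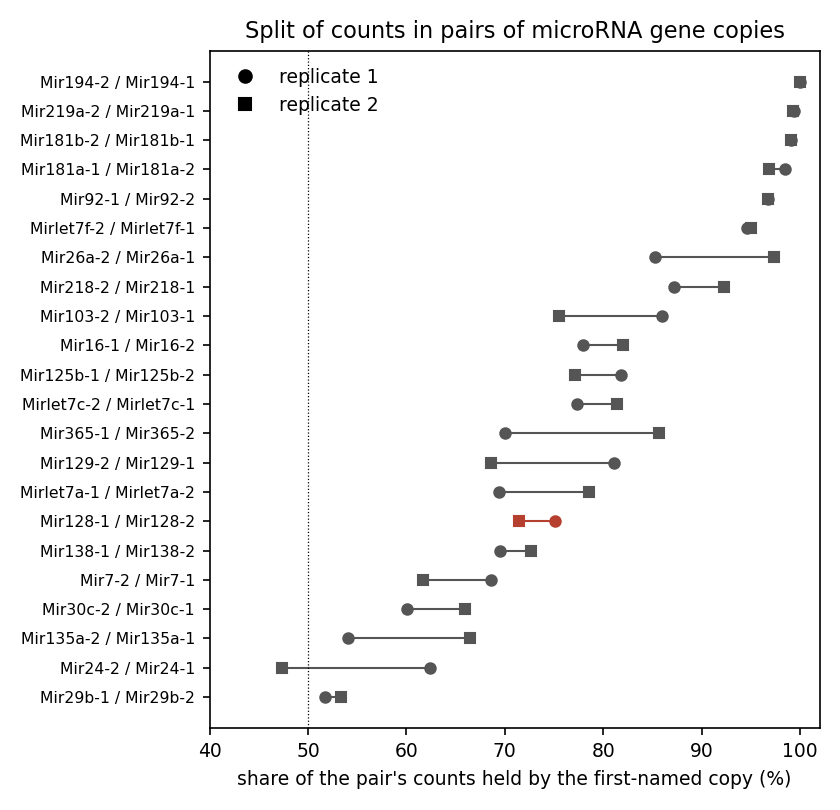
Share of a pair's counts held by the copy named before the slash (horizontal axis, %), for 22 pairs of microRNA gene copies; circles are replicate 1, squares replicate 2, and the dotted line marks an even split. Mir128 (red) lies at 75.1% and 71.4%, among the more even pairs, of which Mir29b is the most even at 52.6% on average.

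The 3p seed was looked for in other mature microRNAs, since genes with the same seed can act on the same messenger RNAs. At bases 2 to 8 only the 2 Mir128 copies have it in this table. Shifted by 1 base it occurs in these, where capitals mark the 7 bases of the miR-128-3p seed:
mmu-miR-216a-3p (Mir216a): CACAGUGgucucugggauuaug
mmu-miR-27a-3p (Mir27a): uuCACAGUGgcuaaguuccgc
mmu-miR-27b-3p (Mir27b): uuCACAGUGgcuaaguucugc
Those of Mir27a and Mir27b, with the 7 bases at positions 3 to 9, were added after their sequences had been seen. Mir27b, known for roles in vessels and lipid metabolism, had 4986 and 5332 counts, or 1442 ± 324 CPM (SD, n = 2). Mir27a had 331 and 367 counts, or 97.8 ± 24.4 CPM. Mir216a, a microRNA known from pancreas, had 11 and 4 counts and was not detected by the minimum of 10 in each library. The 2 Mir128 genes, at 19337 ± 890 CPM in sum, held most of the counts of genes whose mature 3p arm has these 7 bases near its 5′ end. These counts are per gene with both arms together, and reads wholly in the shared stretch are taken to be in neither Mir128 count. They therefore do not measure miR-128-3p against the 3p arms of Mir27a, Mir27b or Mir216a.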

How the data were processed

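Counts are raw reads per microRNA gene as deposited, not normalized. The text deposited beside the files names mm10 and GENCODE M21; no aligner or counter is named there, and settings are likewise not given in the sources used. Each file holds 3 counts per gene (strand ignored, strand of the gene, opposite strand) after 4 leading rows for reads in no gene, which were left out of totals. The strand of the gene was used. All 2202 IDs matched GENCODE M21. CPM is the count over the sum over genes. Zero counts would allow 0.730 and 0.940 CPM (3 counts).

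Genes with at least 10 counts in each library were tested with a two-sided exact binomial test of the split between libraries (scipy 1.17.1), Benjamini-Hochberg adjusted, threshold 0.05. The procedures were tested on simulated counts that varied by read sampling alone. No further spread between libraries was simulated, so this does not show how the tests behave where such spread exists. Hairpins were aligned with Biopython 1.88 and folded with ViennaRNA 2.7.2. Alternatives used TMM (edgeR 4.0.16) and DESeq2 1.42.0 size factors, other totals, strand ignored, minimums of 50 or none, a threshold of 0.01, each replicate left out, and copies defined by identical mature sequence.

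The naming rule took the 2 copies, the 3 genes nearest to each in level, neuron-associated genes of at least 1000 CPM, genes sharing the 3p seed, genes in the hosts or within 100 kb, and leading pairs of copies. The rule for the members uses symbols alone, but the choice to study this pair, and the lists, were made with earlier results of these data known. Genes singled out otherwise were chosen after their values were seen.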

Additional observations from a re-analysis of the deposited data

Results flagged for a closer look

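Signal lay outside the counts used. Reads with several matching positions, taken to be in no gene row, were 39.1% of the total in replicate 1 and 41.4% in the other library, above the share counted in genes (36.6 and 36.4%). How many of them come from the 3p arm that Mir128-1 and Mir128-2 share was not analysed here.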

How the results depend on the processing

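Of 40 values under alternatives other than a replicate left out, 29 kept to the limits set and 11 moved past them. Limits were 1 SD for levels, shares and ranks, 1.5 times for counts of genes, and the threshold for tests. Strand ignored gave 15195 CPM for Mir128-1 and 20761 CPM for the sum. All reads as total gave 5169, 1893 and 7062 CPM for Mir128-1, Mir128-2 and the sum. With the most abundant gene left out of the total, Mir128-1 stood at 15592 CPM and the sum at 21299 CPM. These moves follow from the totals. The log2 ratio of Mir128-1 between libraries missed the threshold with all reads as library size (0.0135; adjusted p = 0.199, exact binomial test), with no count minimum (0.0217; adjusted p = 0.0529) and at 0.01 (0.0217; adjusted p = 0.0298); over its alternatives the adjusted p ran from 6.77e-30 to 0.199. Copies defined by identical mature sequence moved the median share of the leading copy in the other pairs from 79.5 to 79.8%. By that definition the let-7a pair was no longer listed, the let-7c group had 3 genes, and Mir3070a and Mir3070b formed a pair. Pairs present under both definitions had the same shares. With a replicate left out, the rank was 15 to 19 for Mir128-1 and 34 to 42 for Mir128-2, and the share of Mir128-1 in the pair 71.4 to 75.1%. With 2 libraries such values say nothing about stability. Per base of hairpin, an alternative chosen after seeing the data, that share was 74.8%. No paired analysis was possible because there is 1 group. The number of reads sets the intervals, and reads matching several positions limit what the counts of each copy cover.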
